A study of Mus musculus with 5 samples.

Results

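Hyaluronan is a long sugar chain that fills the endocardial cushions, and the 10 genes followed here make it, bind it or lie with it in the embryonic heart matrix: *Has1*, *Has2*, *Has3*, *Ugdh*, *Vcan*, *Hapln1*, *Hapln3*, *Cd44*, *Hmmr* and *Hspg2*. They were taken by name as the hyaluronan synthases, the enzyme that supplies the precursor, the aggregating proteoglycan versican, its link proteins, 2 hyaluronan receptors and perlecan, and no measured value entered the rule. Perlecan (*Hspg2*) is a basement membrane heparan sulfate proteoglycan and does not aggregate with hyaluronan. Of the 10 genes, 9 had a tag in at least 1 library, among 13486 genes with a tag in the series. *Has1* had 15 possible tag types and was listed in no library.

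The data are 5 Tag-seq libraries of mouse heart regions at embryonic day 10.5. In Tag-seq, NlaIII cuts the cDNA at its CATG sites and the 17 bases after a site are read, so that each listed sequence, or tag type, comes with a count. The wild-type libraries are from the atrioventricular canal (AVC), the outflow tract (OFT), the atria and the ventricles of C57BL/6 embryos (C57BL/6J in the study's methods), and the remaining library is from the AVC of *Twist1* Knockout embryos of the ICR strain (here the *Twist1* null). Every library was made from tissue pooled over at least 3 litters, and there was 1 library per condition. None of these groups was treated. The study asked which genes are enriched in the valve-forming regions over the chambers, and which change when *Twist1*, a transcription factor of the cushion mesenchyme, is missing.

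Hyaluronan is made at the cell membrane by the synthases from UDP-glucuronic acid and UDP-N-acetylglucosamine. Versican binds the chain through its N-terminal domain, link proteins clamp the complex, and Cd44 and Hmmr act as receptors on or in the cell. In the mouse heart this matrix swells the cushions and endocardial cells move into it, and mice that lack *Has2* form no cushions.

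The libraries held 4223810 to 12977237 tags, the *Twist1* null being the deepest, and tag types with 5 tags or fewer were not listed. Levels are tags per 1000000 listed tags of the library (TPM), with 95% Poisson intervals that cover counting error only, since PCR copies of a tag are counted too. Genes differ in which of their NlaIII sites are read and in how many of their tag types match 1 gene. Levels are therefore compared between libraries and not between genes. With 1 library per condition the tests below compare libraries and not conditions, and no spread between embryos could be measured. *Twist1* itself was at 918 TPM in the AVC, 299 in OFT, 63.4 in atria, 55.9 in ventricles and 4.55 in the *Twist1* null, which was 202-fold lower than the AVC (156 to 266, edgeR exact test, p = 2.61e-15). The targeted gene therefore followed the labels, although 59 tags remained in the null library. The markers of cushion mesenchyme, 12 genes without *Twist1*, summed to 2964 TPM in the AVC, 3619 in OFT, 307 in atria, 335 in ventricles and 806 in the null, and none of the 12 was unlisted in these cushion libraries. In these bulk tissues fewer cells of a type and less RNA per cell cannot be told apart.

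The AVC and the OFT were each set against the sum of the atria and ventricles, called the chambers. 8 of the 9 members with tags were higher in the AVC by an exact p under 0.05, the exception being *Hmmr*, where 43.4% of the 12503 genes tested were called higher. The median log2 ratio was 4.11 over the members and 1.23 over all genes. In the OFT 5 of 8 members were called higher, against 40.6% of 12451 genes, with medians of 4.13 and 1.07. No member was called lower in either region. Both comparisons use the same chamber libraries, so they are not independent of each other. Haemoglobin transcripts took 22.0% of the tags of the atria and 4.75% of those of the ventricles, but 0.367% in the AVC, 0.433% in OFT and 3.05% in the null, and their part in the ratios was not tested beyond the alternatives. Scaling by TMM lowered AVC ratios by 0.95 and OFT ratios by 0.86 on the log2 scale, and less for genes unlisted on a side. It left 25.6% of genes higher and 17.5% lower in the AVC, where 8.12% were lower before and 5 of the 9 members were then called, all higher (*Has3*, *Hapln1* and *Ugdh* being lost), and 26.2% higher and 17.7% lower in the OFT, where 8.88% were lower before and the members' count stayed at 5 of 8. Cushion mesenchyme markers moved with the members, 11 of the 12 being higher in the AVC and 11 of 12 in OFT, or 8 in each with TMM scaling. Cardiomyocyte markers were higher in 9 of 14 cases and lower in 1 in the AVC (median log2 ratio 2.12). In OFT 8 of 14 were higher (1.99) and 0 lower. With TMM scaling 6 cardiomyocyte markers were higher and 3 lower in the AVC, and 5 and 3 in OFT. The part of these markers in the members' ratios was not tested.

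**Figure D1:**
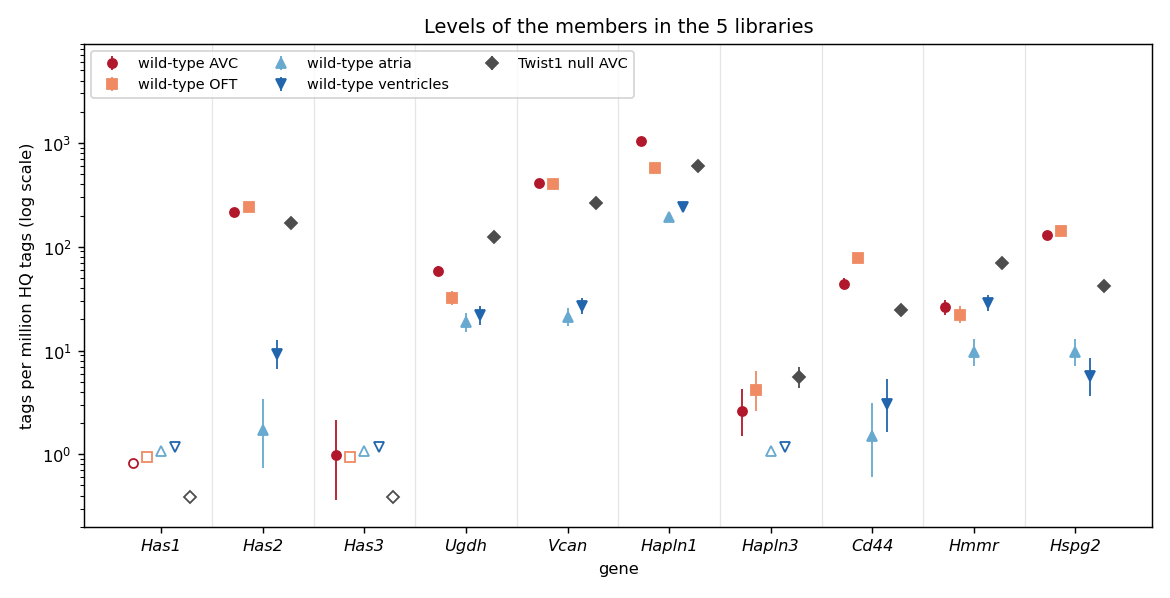
Level of each gene in TPM (log scale) in the 5 libraries, with 95% Poisson intervals of the count. Open symbols stand at the level of 5 tags, the most that an unlisted tag type can hold. *Has2*, *Vcan*, *Cd44* and *Hspg2* lie more than an order of magnitude higher in the AVC and the OFT than in the atria and the ventricles, *Hmmr* in the ventricles lies within the AVC interval, and *Has1* has open symbols only.

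*Has2*, the main synthase of the embryonic heart, was at 215 TPM in the AVC (203 to 227), 241 in OFT (228 to 254), 1.71 in atria (0.740 to 3.38), 9.23 in ventricles (6.57 to 12.6) and 171 in the *Twist1* null (164 to 178). The 3 cushion libraries were all far above both chamber libraries. The AVC was 40.6-fold above the chambers (30.4 to 55.5, edgeR exact test, p = 1.12e-09) and the OFT 45.5-fold (34.0 to 62.2, exact p = 5.48e-10). Within the chambers the ventricles were 5.39-fold above the atria (2.48 to 13.3, exact p = 0.0125), a ratio that rests on 39 and 8 tags. The *Twist1* null was 1.25-fold lower than the AVC (1.17 to 1.34), which the exact test with its fixed dispersion did not call (exact p = 0.652).

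*Has2* was read at several NlaIII sites, and the sites did not move together in the *Twist1* null. The tags that carry this contrast are shown with the NlaIII site in capitals. They lie on the minus strand of chromosome 15 in GRCm38 (gene at chr15:56665627-56694539), all in the 3′ UTR except the last, which spans the end of the coding sequence. The number gives the bases from the tag's start to the 3′ end of the gene.
*Has2*, 480 bases: CATGatttatcttggctggtg
*Has2*, 765 bases: CATGggcgaactgtaactgat
*Has2*, 1295 bases: CATGaaagaataaaatgtttc
*Has2*, 1689 bases: CATGgaagaaaaggattctga
*Has2*, 2050 bases: CATGgtgcttgatgtatgatg

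The tag at 480 bases, from the site nearest the poly(A) tail, had 693 tags in the AVC, 641 in OFT, 0 in atria, 12 in ventricles and 505 in the *Twist1* null. Its share of the *Has2* tags was 53.1% in the AVC (Clopper-Pearson 95% interval 50.4 to 55.9), 50.6% in OFT (47.8 to 53.4) and 22.7% in the null (21 to 24.5). In TPM it was 2.93-fold lower in the null than in the AVC (2.61 to 3.29), whereas the tags at 765, 1295, 1689 and 2050 bases were 1.76, 1.24, 1.17 and 1.87-fold higher. The small difference of *Has2* as a gene was thus the sum of opposite differences at its sites. Among 6081 genes with at least 100 tags in both libraries, the share of the 3′-most site differed by a median of -0.743 percentage points, with quartiles at -10.3 and 2.06, and 6.87% of genes had a lower difference than the -30.4 points of *Has2*.

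Libraries differed in how tags fell on sites. Of all tags with a single gene, 70.5% came from the 3′-most site in the AVC, 69.1% in OFT, 80.3% in atria, 74.8% in ventricles and 67.5% in the *Twist1* null. A site was counted as 3′-most where it was so in any RefSeq-linked transcript of the gene. Tags whose own sequence holds a further CATG, which can only be read where NlaIII left that site uncut, made up 0.260% of tags in the AVC, 0.174% in OFT, 0.244% in atria, 0.214% in ventricles and 0.846% in the null. This measure was chosen after the site values had been seen. Its part in the tags from upstream sites was not tested. From the AVC to the null the share of the 3′-most site fell for *Has2* and for *Hapln1* (44.3% to 31.3%). The share was 97.8% in both for *Cd44*. It rose for *Vcan* (63.2% to 71.3%), *Ugdh* (31.0% to 44.7%), *Hmmr* (96.2% to 99.2%) and *Hspg2* (83.2% to 90.8%).

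*Has3*, a synthase of shorter chains, had 6 tags of a single type in the AVC (0.988 TPM, 0.362 to 2.15) and none listed elsewhere. The exact test called it higher in the AVC than in the chambers (exact p = 0.0391) and lower in the null than in the AVC (exact p = 0.0254), but 6 tags is the smallest count that the files list, and an unlisted tag type may hold up to 5.

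*Ugdh*, which makes UDP-glucuronic acid, was at 58.4 TPM in the AVC (52.5 to 64.8), 31.9 in OFT (27.2 to 37.1), 18.9 in atria (15.1 to 23.2), 21.8 in ventricles (17.6 to 26.7) and 123 in the *Twist1* null (117 to 129). Its highest level was thus in the null, and its chamber libraries did not differ beyond counting error. The AVC was 2.89-fold above the chambers (2.41 to 3.47, exact p = 0.0403), a call lost under 8 of 17 alternatives, and the OFT ratio of 1.58 (1.27 to 1.95, exact p = 0.377) turned below 1 under TMM and DESeq2 scaling. The null was 2.11-fold above the AVC (1.88 to 2.37) without a call (exact p = 0.141). It was called higher under 2 of 14 alternatives, a dispersion of 0.05 and the 3′-most site alone. The ratio turned to a log2 value of -1.34 when tags starting with T were left out.

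Its 3 main tags lie in the 3′ UTR on the minus strand of chromosome 5 (chr5:65413221-65435949), and 2 of them start with T after the NlaIII site while the other starts with A. The last 4 bases of the tag at 16 bases come from the poly(A) tail added to the transcript.
*Ugdh*, 16 bases: CATGtgtagactggaaaaaaa
*Ugdh*, 348 bases: CATGaaatcactgtgctagta
*Ugdh*, 505 bases: CATGttgttttaaatgtcagt

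The tag at 505 bases had 13 tags in the AVC, 6 in OFT, 12 in atria, 11 in ventricles and 664 in the *Twist1* null. The wild-type libraries were thus all low and the null was high, 23.9-fold above the AVC in TPM (13.9 to 45.1). The tag at 348 bases went the other way, with 232 tags in the AVC and 195 in the null, 2.54-fold lower in TPM (2.09 to 3.09). These tags made 3.66% and 65.4% of the *Ugdh* tags in the AVC, and 41.6% and 12.2% in the null. The tag at 16 bases was 3.04-fold higher in the null (2.48 to 3.75). Between the wild-type cushion libraries the 3′-most tag rose from 31.0% of *Ugdh* tags in the AVC to 50.6% in OFT, a difference of 19.6 points, and 99.4% of 5397 genes had a lower one.

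*Vcan*, the chondroitin sulfate proteoglycan versican, was at 413 TPM in the AVC (397 to 429), 405 in OFT (388 to 423), 21 in atria (17.0 to 25.6), 27.0 in ventricles (22.3 to 32.4) and 263 in the *Twist1* null (254 to 272). The AVC and OFT intervals overlapped, as did those of the atria and ventricles, and the cushion libraries stood apart from the chambers. The AVC was 17.3-fold above the chambers (15.0 to 20.01, exact p = 4.99e-07) and the OFT 17.0-fold (14.7 to 19.6, exact p = 5.86e-07). The null was 1.57-fold below the AVC (1.49 to 1.65) and was not called (exact p = 0.368).

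Versican was read through 20 tag types, 10 in 3′ UTR sequence and 10 in coding sequence. The gene lies at chr13:89655312-89742509 on the minus strand, and the tags shown are the most abundant, the 2 with the lowest ratio in the null and the most abundant coding tag.
*Vcan*, 114 bases: CATGtatagtgtaaaatgtga
*Vcan*, 603 bases: CATGggaatcattatctagat
*Vcan*, 1260 bases: CATGttcccttttcttcactt
*Vcan*, 50013 bases: CATGgaaatcacaaatcatat

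The tag at 114 bases had 1308 tags in the AVC, 1124 in OFT, 34 in atria, 53 in ventricles and 2235 in the *Twist1* null, and was 1.25-fold lower in the null than in the AVC (1.17 to 1.34). The tags at 603 and 1260 bases differed far more, with 72 and 208 tags in the AVC and 13 and 36 in the null, 11.8-fold (6.50 to 23.3) and 12.3-fold (8.63 to 18.1) lower. Of the 8 *Vcan* tag types listed in both AVC libraries, 7 were lower in the null. A further 9 were listed in the wild-type AVC but not in the null, although the null was sequenced deeper.

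The coding tags of *Vcan* fall mostly in the pair of long, alternatively spliced exons that encode the chondroitin sulfate attachment regions of versican. The exon of 5217 bases (chr13:89688285-89693501) is in 2 of the 5 RefSeq-linked transcripts and was read through 6 tag types, with 51 tags in the AVC, 79 in OFT and none listed in the atria, the ventricles or the null. The exon of 2880 bases (chr13:89702918-89705797), also in 2 of 5 transcripts, had 2 tag types with 47 tags in the AVC, 16 in OFT and none listed in the other libraries. With 5 tags allowed for each of these tag types in the null, the AVC sums stood 3.63-fold and 10.04-fold above that limit. Against the chambers the same ratios were 1.24 and 3.44-fold. They leave out counting error. Each type passed the listing limit only through the AVC or the OFT, so the direction was fixed by that limit. The ratios do not cover other sites of these exons. These exon sums were chosen after the tag values had been seen and were not tested.

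*Hapln1*, the cartilage link protein that holds versican on hyaluronan, was at 1045 TPM in the AVC (1019 to 1071), 568 in OFT (548 to 589), 195 in atria (182 to 208), 242 in ventricles (227 to 257) and 605 in the *Twist1* null (592 to 619). The AVC was thus highest, and the OFT and the null lay between it and the chambers. The AVC was 4.81-fold above the chambers (4.57 to 5.06, exact p = 0.00259), a call lost with TMM, with DESeq2 size factors and with a dispersion of 0.4. The OFT was 2.62-fold above them (2.47 to 2.77) and was not called (exact p = 0.0581). The OFT was 1.84-fold below the AVC (1.76 to 1.92, exact p = 0.225) and the null 1.73-fold (1.67 to 1.78, exact p = 0.276), both without a call. *Hapln1* (chr13:89539796-89611652, plus strand) and *Vcan* are neighbours whose 3′ ends face each other over 43659 bases.

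The 16 tag types of *Hapln1* also split in the *Twist1* null, 9 being lower and 3 higher than in the AVC of the 12 listed in both. The tag nearest the poly(A) tail, the more abundant of 2 coding tags and the more abundant of 2 tags with a further NlaIII site are shown beside the 3′ UTR tag that this site begins, with both sites in capitals.
*Hapln1*, 145 bases: CATGcattcttctgttgctag
*Hapln1*, 634 bases: CATGgagtagctgaccactaa
*Hapln1*, 645 bases: CATGctggtgtCATGgagtag
*Hapln1*, 10018 bases: CATGggctatcacaagaagac

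The tag at 145 bases had 2811 tags in the AVC, 1282 in OFT, 332 in atria, 399 in ventricles and 2461 in the *Twist1* null, 2.44-fold lower in the null than in the AVC (2.31 to 2.58). The coding tag at 10018 bases had 106, 52, 0, 0 and 685 tags in the same order, 3.03-fold higher in the null (2.46 to 3.75). The tag at 645 bases had 7 tags in the AVC, none listed in the OFT and the chambers, and 147 in the null, 9.83-fold higher (4.65 to 24.9). It runs across the uncut site that begins the tag at 634 bases, which was 1.42-fold lower in the null (1.27 to 1.59).

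*Hapln3*, a more widely expressed link protein, was at 2.63 TPM in the AVC (1.51 to 4.28), 4.18 in OFT (2.62 to 6.32) and 5.55 in the *Twist1* null (4.34 to 6.99), and was not listed in the atria or the ventricles. These levels rest on 16, 22 and 72 tags. With 5 tags allowed per chamber library for the 1 tag type listed in the AVC and the OFT, the AVC stood 2.34-fold above that limit. The OFT stood 3.71-fold above it. The limit does not cover the other possible tag types of the gene. This type passed the listing limit only through the cushion libraries, so the direction was fixed by that limit. The exact tests (p = 6.35e-04 for the AVC and 7.51e-05 for the OFT) take the chambers as 0. The null was 2.11-fold above the AVC (1.21 to 3.88, exact p = 0.208), and 20 of its 72 tags came from a coding tag type that no wild-type library listed.

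*Cd44*, the cell surface receptor for hyaluronan, was at 44.1 TPM in the AVC (39.0 to 49.7), 77.1 in OFT (69.8 to 85.0), 1.5 in atria (0.603 to 3.09), 3.08 in ventricles (1.64 to 5.26) and 24.5 in the *Twist1* null (21.9 to 27.3). The OFT was highest, the null lay between the AVC and the chambers, and the atria and ventricles overlapped. The AVC was 19.6-fold above the chambers (12.4 to 32.6, exact p = 7.80e-07) and the OFT 34.3-fold (21.9 to 56.7, exact p = 1.32e-08), while the OFT stood 1.75-fold above the AVC (1.49 to 2.05) without a call (exact p = 0.272). The null was 1.8-fold below the AVC (1.52 to 2.12, exact p = 0.249).

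The *Cd44* tags shown (chr2:102811141-102901665, minus strand) are the most abundant and one that only the *Twist1* null listed.
*Cd44*, 685 bases: CATGtccatattttgtatgtt
*Cd44*, 3010 bases: CATGaagattggggtgtagtg

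The 3′ UTR tag at 685 bases had 201 tags in the AVC, 248 in OFT, 0 in atria, 13 in ventricles and 186 in the null, 2.31-fold lower in the null than in the AVC (1.88 to 2.83). The tag at 3010 bases, which spans an end of the coding sequence, had 86 tags in the null and was listed in no wild-type library. All 3 *Cd44* tag types listed in both AVC libraries were lower in the null, so the gene's ratio of 1.8-fold holds this added tag type within it.

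*Hmmr*, a hyaluronan-binding protein that also sits on the mitotic spindle, was at 26.0 TPM in the AVC (22.1 to 30.4), 22.2 in OFT (18.4 to 26.6), 9.64 in atria (7.03 to 12.9), 28.6 in ventricles (23.8 to 34.2) and 70.3 in the *Twist1* null (65.8 to 74.99). The ventricles were as high as the AVC within counting error, and it was the only member with tags not called in the AVC against the chambers. In the OFT it was 1 of 3 not called. Its AVC ratio of 1.39 (1.11 to 1.74, exact p = 0.524) and OFT ratio of 1.19 (0.931 to 1.52, exact p = 0.748) both turned below 1 with TMM or DESeq2 scaling and against the ventricles alone. The ventricles were 2.97-fold above the atria (2.09 to 4.28, exact p = 0.0465), which with *Has2* made 2 of 7 members called higher there, where 11.1% of 10705 genes were. With TMM scaling *Hmmr* was not called there.

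The *Twist1* null was 2.70-fold above the AVC for *Hmmr* (2.28 to 3.22, exact p = 0.0538), just outside the threshold, and 7 of 14 alternatives called it higher while leaving out tags starting with T turned it to a log2 value of -0.86. Nearly all of its tags come from a single type that starts with T, at 81 bases from the 3′ end of the gene (chr11:40701395-40733422, minus strand).
*Hmmr*, 81 bases: CATGtatgatttttagagaat

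This tag had 152 tags in the AVC, 111 in OFT, 45 in atria, 121 in ventricles and 905 in the null. A list of 20 S, G2 and M phase genes summed to 2018 TPM in the AVC, 1934 in OFT, 1508 in atria, 2265 in ventricles and 1829 in the null, and 1 of the 20 was called higher and 1 lower in the null.

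*Hspg2*, perlecan of the basement membrane, was at 131 TPM in the AVC (122 to 141), 141 in OFT (131 to 151), 9.64 in atria (7.03 to 12.9), 5.68 in ventricles (3.64 to 8.45) and 41.9 in the *Twist1* null (38.5 to 45.6). The AVC and OFT did not differ beyond counting error, and the null fell between them and the chambers. The AVC was 16.9-fold above the chambers (13.2 to 21.9, exact p = 8.71e-07) and the OFT 18.1-fold (14.1 to 23.5, exact p = 5.36e-07). The main tag (gene at chr4:137468769-137570630, plus strand) starts 440 bases from the 3′ end.
*Hspg2*, 440 bases: CATGtccttggcagtgtcccc

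It had 663 tags in the AVC, 620 in OFT, 45 in atria, 24 in ventricles and 494 in the null, 2.87-fold lower in the null than in the AVC (2.55 to 3.23). All 3 *Hspg2* tag types listed in both AVC libraries were lower in the null, and 5 further types were listed in the wild-type AVC but not in the null.

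The loss of *Twist1* was addressed by the null against the wild-type AVC, in which genotype and strain (ICR against C57BL/6, in the methods C57BL/6J) differ together and cannot be told apart. Of the 9 members with tags, 2 were called lower, *Hspg2* at 3.13-fold (2.80 to 3.50, exact p = 0.0265) and *Has3* with its 6 tags. With TMM or DESeq2 scaling *Hspg2* was no longer called (exact p = 0.0561 and 0.0550). The background was 12.7% of 12963 genes lower and 11.9% higher, and 9.36% lower and 14.9% higher with TMM scaling, which raised ratios of genes listed on both sides by 0.24. The median log2 ratio was -0.65 over the members and -0.16 over all genes. After Benjamini-Hochberg adjustment over all genes no member was called, the adjusted p of *Hspg2* being 0.136, where 8.99% of genes were called in either direction. Cushion mesenchyme markers fell along with *Hspg2*, 7 of 12 being called lower and none higher. Of 12 endothelial markers 1 was called higher and none lower, and of 14 cardiomyocyte markers 1 was called in each direction. Erythroid markers were higher in 4 of 8 cases and lower in none (median log2 ratio 1.8), summing to 2432 TPM in the AVC against 27359.6 in the null, and 2 of 8 epicardial markers were lower. Their part in the members' values was not tested.

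**Figure D2:**
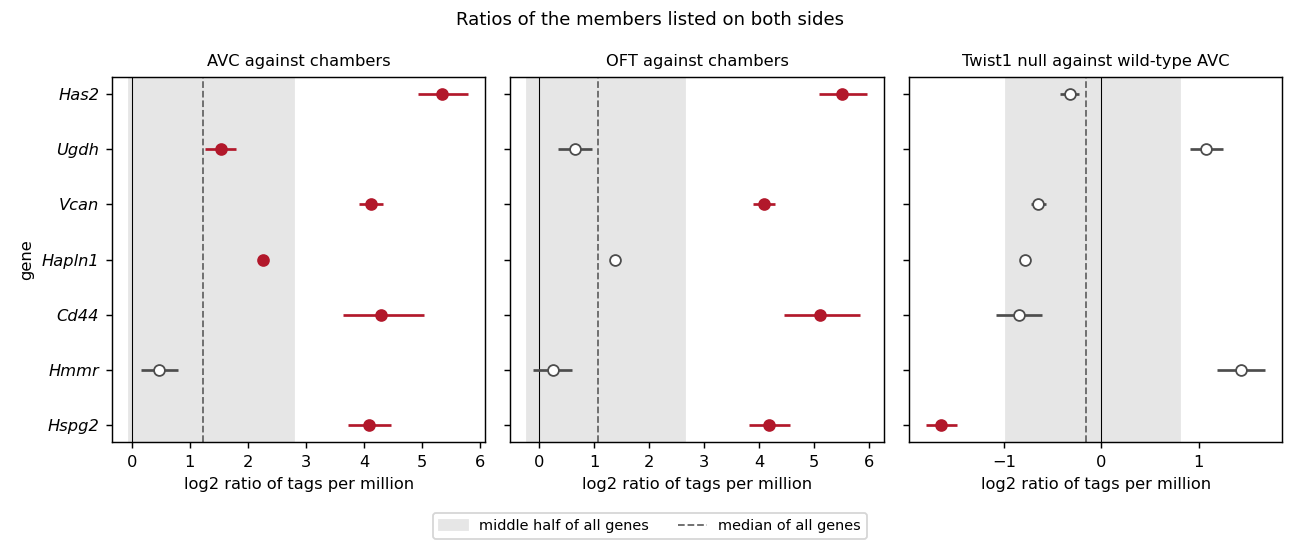
Log2 ratio of the TPM of the 7 genes listed on both sides of each comparison, with 95% counting intervals. Filled red points have an exact p under 0.05, the grey band holds the middle 50% of all genes tested and the dashed line is their median. *Has2*, *Vcan*, *Cd44* and *Hspg2* lie right of the band in the AVC and the OFT, while in the *Twist1* null *Hspg2* lies left of the band and *Ugdh* and *Hmmr* right of it.

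No member was called between the OFT and the AVC, where 12.6% of 12541 genes were called in either direction. 9 members were tested there. *Has2* was 1.12-fold higher in the OFT (1.04 to 1.21, exact p = 0.821) and *Hspg2* 1.07-fold (0.969 to 1.19, exact p = 0.890). *Ugdh* was 1.83-fold lower in the OFT (1.52 to 2.21, exact p = 0.239). Among members listed in both libraries the most unequal levels were thus *Hapln1* and *Ugdh*, higher in the AVC, and *Cd44*, higher in the OFT. *Vcan* differed by a log2 ratio of -0.03 (exact p = 0.970), which turned to 0.06 with TMM scaling.

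Other genes of the same pathway were taken from lists fixed by function. Their counts stand against these shares of all genes. In the AVC against the chambers 43.4% were higher and 8.12% lower, or 25.6% and 17.5% with TMM scaling. In the null against the AVC 11.9% were higher and 12.7% lower, or 14.9% and 9.36% with TMM scaling. The median log2 ratios of all genes were 1.23 and -0.16. The nucleotide sugar list, 15 genes that feed the synthases and other pathways, had 4 genes higher and none lower in the AVC than in the chambers, with a median log2 ratio of 0.47, below the 1.23 of all genes, and with TMM scaling 3 were higher and 4 lower. Its most abundant genes in the AVC, *Ugp2* (169 TPM in the AVC), *Uap1* (147) and *Gpi1* (136), were not called against the chambers. In the *Twist1* null 2 of 15 were higher and 1 lower. *Gpi1* was at 136 TPM in the AVC against 816 in the null, 6.01-fold higher (exact p = 6.80e-04), and *Hk2* was 5.78-fold higher (exact p = 9.14e-04). Both are also glycolytic enzymes. *Gfpt2*, an enzyme of the hexosamine pathway, was 4.23-fold lower in the null (exact p = 0.00617).

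Of the chondroitin sulfate genes, which build the side chains of versican, 10 of 20 tested were higher and 1 lower in the AVC (median 1.41), or 6 and 3 with TMM scaling. These counts and the median lie near those of all genes (43.4% higher, or 25.6% with TMM scaling, and 1.23). *Chsy1*, a chondroitin synthase, was at 367 TPM in the AVC, 3.34-fold above the chambers (exact p = 0.0188), while the epimerase *Dse* at 71.9 TPM was not called. *Papss2*, which makes the sulfate donor, reached 219 TPM in the AVC and 116 in OFT but was not listed in the chambers. In the *Twist1* null 2 of 21 were higher and 6 lower (median -0.94), or 3 and 4 with TMM scaling. *Papss2* fell to 12.0 TPM in the null, 18.2-fold lower (exact p = 3.70e-07). *B4galt7*, which extends the linker to the core protein, was not listed in the AVC and was at 6.01 TPM in the null (exact p = 8.45e-06), and *Ust*, a sulfotransferase, was at 1.98 TPM in the AVC but not listed in the null (exact p = 0.00149).

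Heparan sulfate enzymes and basement membrane partners of perlecan were higher in the AVC in 17 of 27 cases and lower in none (median 1.87), or 10 and 1 with TMM scaling. The laminin chain *Lamb1* was at 519 TPM in the AVC, 4.69-fold above the chambers (exact p = 0.00301), and nidogen (*Nid1*) at 383 TPM was 5.26-fold above them (exact p = 0.00156), whereas the collagen chain *Col4a1* at 408 TPM was not called. In the *Twist1* null 5 of 27 were lower and 1 higher (median -0.998), or 3 and 1 with TMM scaling, where 12.7% of all genes were lower, or 9.36% with TMM scaling. The lower genes included *Hs3st1*, a heparan sulfate sulfotransferase, at 25.7 TPM in the AVC against 3.78 in the null (6.80-fold, exact p = 5.82e-04), and *Ndst1*, which modifies the nascent chain, 3.93-fold (exact p = 0.00954). The higher gene was *Extl1*, not listed in the AVC and at 1.08 TPM in the null (exact p = 0.0113). The test takes the AVC as 0, although an unlisted tag type there may hold up to 5 tags, or 0.823 TPM.

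Genes of hyaluronan breakdown were split, with 3 of 8 higher and 2 lower in the AVC, or 2 and 2 with TMM scaling, and 2 higher and 2 lower in the null, or 2 and 1. The cell surface hyaluronidase *Cemip2* was at 71.3 TPM in the AVC against 74.8 in the null, and *Hyal2* at 23.7 and 21.1, none of these called. The lysosomal enzymes differed among themselves. *Gusb* was at 12.5 TPM in the AVC against 51.2 in the null (4.09-fold higher, exact p = 0.00787), while *Hexa* was 3.15-fold lower (exact p = 0.0304). *Hyal3* had 6 tags in the AVC alone and was called lower in the null (exact p = 0.0254), but 6 tags is the smallest count listed.

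Other hyaluronan-binding proteins and aggregating proteoglycans included 4 higher and 6 lower of 10 in the AVC, or 3 and 6 with TMM scaling, with a median of -3.93. In the *Twist1* null 3 of 9 were higher and 2 lower. Only 2 of the 10 were listed on both sides for the AVC, and 4 of the 9 for the null. The other ratios, and with them the median, rest on a side without a listed tag. *Habp4* at 23.2 TPM in the AVC was lower than in the chambers (exact p = 0.00602). *Itih5*, a heavy chain of the inter-alpha-trypsin inhibitor family whose members bind hyaluronan, was at 16.1 TPM in the AVC against 2.77 in the null, 5.81-fold lower (exact p = 0.00180). *Ptx3* was at 1.65 TPM in the AVC but not listed in the null (exact p = 0.00278). *Lyve1*, a hyaluronan receptor of lymphatic and some other endothelial cells, was listed at 4.07 TPM in the atria and 1.23 in the null only. *Tlr4* was at 2.14 TPM in the AVC, against 0.616 in the null (exact p = 0.0945).

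**Figure D3:**
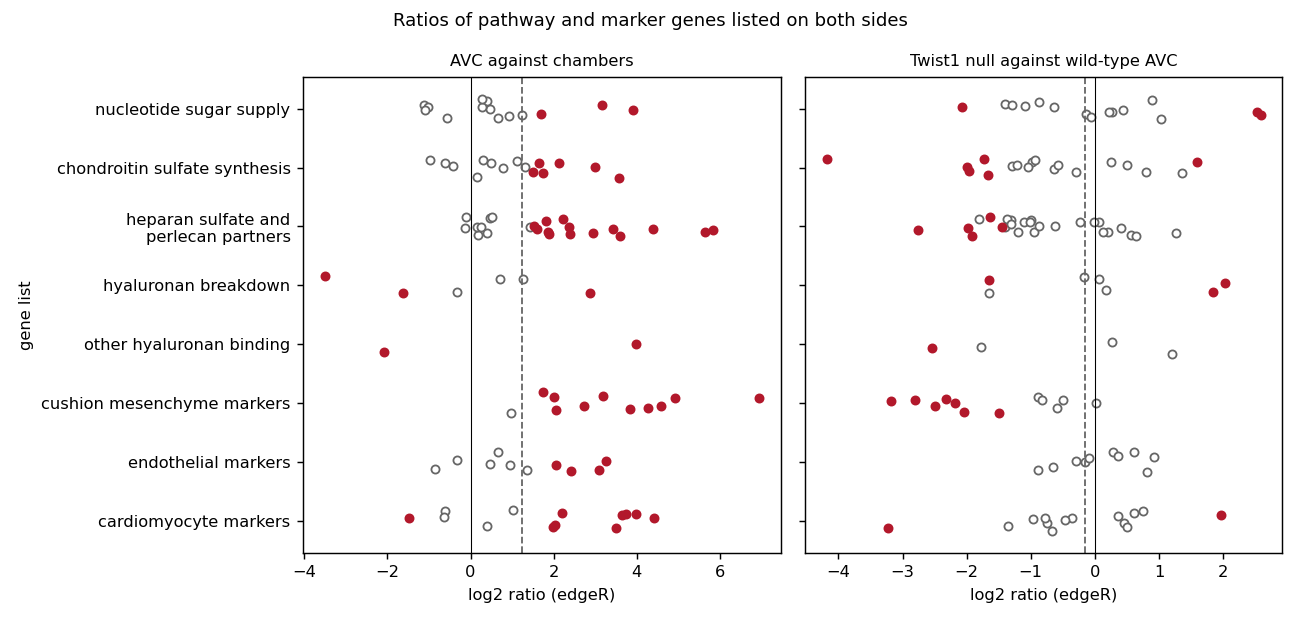
edgeR log2 ratio of every gene of 5 pathway lists and 3 marker lists that was listed on both sides of the comparison, for the AVC against the chambers and for the *Twist1* null against the wild-type AVC. Filled red points have an exact p under 0.05 and the dashed line is the median of all genes. The 11 cushion mesenchyme markers drawn for the AVC lie right of 0, with 10 of them called, and 7 of 12 are called left of 0 in the null.

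The genes whose levels ran most like those of a member were sought by the Euclidean distance between centred log2(TPM + 1) profiles over the 5 libraries, among 6513 genes. For *Has2* these were *Luc7l2* (distance 0.970), *Ehbp1l1* (1.16) and *Hyou1* (1.34). For *Vcan* they were *Itgb1* (0.241), the integrin beta 1 chain, *Taf6* (0.245) and *Atxn2l* (0.326). For *Hapln1* they were *Commd4* (0.0919), *Parp6* (0.127) and *Pcif1* (0.244). *Itgb1* was at 849 TPM in the AVC, 912 in OFT, 53.4 in atria, 55.4 in ventricles and 552 in the *Twist1* null. A distance over 5 libraries is a description and carries no test.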

How the data were processed

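RNA of dissected heart regions was cut with NlaIII and MmeI and sequenced as tags. The deposited files list counts for each tag type, kept by the authors above 5 tags per library and not normalized (build mm9 in the submitters' processing notes). No further column of values was present.

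Tags were matched with Python 3.11.15 to the sense strand of 33363 RefSeq-linked GENCODE M21 transcripts (GRCm38), with 20 adenines added at the end, and were summed where they matched 1 gene, which 70.7 to 74.5% of tags did. TPM are per 1000000 listed tags. Comparisons were made by the exact test (two-sided) in edgeR 4.0.16 (R 4.3.3) on all genes with a tag, with the dispersion of the study's methods (0.12), listed totals as library sizes and an unadjusted p under 0.05. A quasi-likelihood test needs replicates. Ratio intervals are exact and conditional on the tag total, and cover counting error. Scripts were tested on simulated data. The 10 genes, the pathway and marker lists and the 17 alternatives were chosen with earlier results of these data known. Named genes are the 10, *Twist1*, in each pathway list the 3 most abundant in the AVC and up to 3 with the smallest p in the null, and 3 of most similar pattern for *Has2*, *Vcan* and *Hapln1*. No genome sequence was used, so tags were not checked against it. The values of 1 gene that this rule names in the hyaluronan breakdown list are not reported here.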

Additional observations from a re-analysis of the deposited data

Results flagged for a closer look

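Tags that matched only the antisense strand of the members entered no comparison. Summed over the 5 libraries there were 1635 such tags for *Has2*, equal to 33.8% of its sense tags, 1203 for *Vcan* (14.6%), 4917 for *Hapln1* (25.7%), 187 for *Cd44* (18.5%), 43 for *Hmmr* (3.18%) and 145 for *Hspg2* (6.74%). *Ugdh* had 6197 antisense tags, 269% of its sense tags, and nearly all were of a single type with 815 tags in the AVC, 382 in OFT, 448 in atria, 737 in ventricles and 3713 in the *Twist1* null. It is shown because it outnumbers the sense tags of its gene.
*Ugdh* antisense: CATGggattttatttgtttgc

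For *Has2* the antisense tags came to 334 in the AVC, 346 in OFT and 955 in the null, and none were listed in the chambers, where the sense tags were also few. Over all genes the antisense share of tags was 6.42% in the AVC, 7.06% in OFT, 3.28% in atria, 3.93% in ventricles and 9.58% in the null. Their source was not tested.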

How the results depend on the processing

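*Has2*, *Vcan*, *Cd44* and *Hspg2* were called higher in the AVC and in the OFT under all 17 alternatives, and *Hapln3* under the 16 that gave a value. For the AVC against the chambers 8 members were called, and 5 with TMM, with DESeq2 size factors or with a dispersion of 0.4. For the OFT the count of 5 ranged from 4 to 7. For the null against the AVC 2 were called, but 1 with at least 50 tags per gene, with 5 tags filled in for missing tag types or with all transcripts. There were 4 with a dispersion of 0.05 and 5 with the 3′-most site alone (*Has2* then being lower, and *Hmmr* and *Ugdh* higher). None (0) were called with a dispersion of 0.4 or after Benjamini-Hochberg adjustment. The call of *Hspg2* was lost with TMM, DESeq2 size factors, a dispersion of 0.4 and the adjustment. For the OFT against the AVC no member was called, and 1 with a dispersion of 0.05 or with all transcripts. For the ventricles against the atria 2 were called, 1 with TMM, DESeq2 size factors, totals without haemoglobin or at least 50 tags per gene, and 0 with a dispersion of 0.4 or the adjustment. No share of all genes called stands beside these counts, so a change in a count is not a result about the members.

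Log2 ratios that changed sign were, with TMM and with DESeq2 size factors in turn, *Hmmr* in the AVC (-0.47 and -0.51) and the OFT (-0.61 and -0.62), *Ugdh* in the OFT (-0.20 and -0.22), *Vcan* between OFT and AVC (0.056 and 0.056), and between ventricles and atria *Hapln1* (-0.011 and -0.00067) and *Ugdh* (-0.11 and -0.10, and -0.080 without haemoglobin). Against the ventricles alone *Hmmr* was at -0.14 in the AVC and -0.37 in the OFT. Without tags starting with T, *Hmmr* (-0.86) and *Ugdh* (-1.34) turned in the null, *Vcan* (0.27), *Hmmr* (0.20) and *Hspg2* (-0.074) between OFT and AVC, and *Cd44* (-5.76) between ventricles and atria. Beyond the settings themselves the cause was not tested. No paired analysis was possible because each condition has 1 library.

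A single tag type had to reach 0.462 TPM in the null and 0.988 to 1.42 TPM in the wild-type libraries to be listed, so *Has1*, *Has3* and the coding tags of *Vcan* were at or under the limit of detection in most libraries.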

Other observations

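A few tags matched only transcripts of the members that lack a RefSeq link and entered no level. *Cd44* had 2 such tag types, with 20 tags in the AVC and 10 in the OFT for the more abundant, and neither was listed in the chambers or the *Twist1* null. *Has3* had 2, the more abundant with 24 tags in the AVC and 16 in the null and the other with 7 tags in the null alone, so that its listing in the AVC alone holds for RefSeq-linked transcripts only. *Hmmr* had 1, with 12 tags in the AVC, 20 in OFT, 8 in ventricles and 28 in the null. *Ugdh* had 2, with 12 tags in the AVC alone and 25 in the null alone, and *Vcan* had 1 with 8 tags in the null alone.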
